A study of Mus musculus with 8 samples.

Results

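The genes described here handle ATP and adenosine outside the cell. They are Entpd1, Nt5e, Adora2a, P2rx7, P2rx4, Ada and Cd38, 7 of the 19191 gene rows of the RNA-seq count table, and they were taken by symbol. The cells were regulatory T (Treg) cells, Foxp3-expressing CD4 T cells that restrain immune responses. They had been flow-sorted from large intestine lamina propria of C57BL/6 mice. KO mice had the genotype Ahr f/- Foxp3 Yfp-Cre and WT mice the genotype Ahr f/+ Foxp3 Yfp-Cre, with 2 libraries each. Ahr encodes the aryl hydrocarbon receptor, which switches on genes when it binds ligands from diet or microbes. Both genotypes carry the Cre recombinase under Foxp3 and a floxed Ahr allele, so WT Treg cells keep 1 working copy, and the remaining cells of the body keep 1 copy in KO and 2 in WT. What happens inside Treg cells and what comes from the tissue around them cannot be told apart. Age, sex and the pooling of animals were not given in the sources used here. Nothing in the labels ties replicates to separate animals, and the p-values therefore reflect the spread of these 4 libraries, which may be technical.

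ATP that leaves stressed or dying cells is a danger signal, and adenosine made from it quiets immune cells. CD39, the product of Entpd1, strips phosphates from ATP and ADP to give AMP, and CD73, the product of Nt5e, turns AMP into adenosine. Mouse Treg cells are known for carrying both enzymes, and adenosine made this way acts on a receptor of nearby T cells, encoded by Adora2a, which raises cAMP. The channels P2X7 and P2X4 open on ATP binding, adenosine deaminase (Ada) converts adenosine to inosine, and CD38 breaks down NAD, a cofactor that also feeds the modification of P2X7 on mouse T cells. In other T cells Ahr has been linked to the expression of Entpd1.

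Ahr acts at DNA through a short element whose core is GCGTG. The windows around the annotated starts of Entpd1, the gene whose KO and WT libraries lay furthest apart among the 7, are printed with that of Ahrr, the repressor gene that Ahr itself induces. They are from RefSeq (build GRCm38.p6), run from 250 bases before to 50 after the start on the gene's strand, and carry the core in capitals where it occurs on either strand. No hits overlapped.
Entpd1 start window at chr19:40612116-40612415 (plus strand): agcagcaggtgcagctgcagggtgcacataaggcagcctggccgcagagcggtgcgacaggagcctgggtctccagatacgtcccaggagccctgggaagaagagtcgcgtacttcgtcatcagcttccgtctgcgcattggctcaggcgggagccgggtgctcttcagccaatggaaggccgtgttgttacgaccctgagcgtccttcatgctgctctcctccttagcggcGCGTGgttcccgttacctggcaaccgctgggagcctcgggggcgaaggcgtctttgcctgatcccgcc
Entpd1 alternative start window at chr19:40659520-40659819 (plus strand): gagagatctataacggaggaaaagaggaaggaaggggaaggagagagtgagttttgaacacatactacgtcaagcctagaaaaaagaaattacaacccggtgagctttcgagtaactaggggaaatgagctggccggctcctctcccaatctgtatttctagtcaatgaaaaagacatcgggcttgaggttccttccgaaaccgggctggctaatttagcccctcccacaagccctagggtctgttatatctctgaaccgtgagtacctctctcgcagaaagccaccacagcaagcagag
Ahrr start window at chr13:74292282-74292581 (minus strand): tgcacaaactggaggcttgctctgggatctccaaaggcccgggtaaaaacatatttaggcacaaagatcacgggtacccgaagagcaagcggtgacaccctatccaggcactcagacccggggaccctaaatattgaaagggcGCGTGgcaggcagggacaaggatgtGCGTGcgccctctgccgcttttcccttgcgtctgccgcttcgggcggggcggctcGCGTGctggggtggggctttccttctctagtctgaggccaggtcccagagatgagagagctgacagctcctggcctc
The first Entpd1 window held 1 core, which begins 18 bases before the start, and the alternative window held 0. The Ahrr window held 3. Windows were found for 6 of the 7 genes, and 3 of these 6 genes (Entpd1, Nt5e and Ada) had at least 1 core. Of 32817 such windows over all genes, 32.4% held at least 1 core and 3.91% held 3 or more. This share is per window, while the count above is per gene, and Entpd1 and P2rx7 had an alternative window each. A match is a run of letters and not evidence of binding.

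The total gene count was 30993483 and 53438828 in KO and 26862922 and 62402450 in WT (replicates 1 and 2). Replicate 2 was the deeper library in both genotypes, and it also held more reads of Lars2 (0.724% in KO and 1.66% in WT) than replicate 1 (0.0633% in KO and 0.0367% in WT), so ratios within each replicate number are given beside pooled values. The targeted gene Ahr stood at 536 and 518 CPM in KO and 581 and 539 CPM in WT, where CPM is a count per 1000000 scaled counts. Counts over a whole gene can include a transcript that lacks an exon, so Ahr did not check the deletion. Ahrr held 12 and 14 reads in KO against 196 and 417 reads in WT, a log2 fold change of -4.42 ± 0.31 with an edgeR adjusted p of 0.218. All 7 Treg markers found, among them Foxp3, Cd4 and Il2ra, were well above the floor of 0.0481 to 0.112 CPM that a count of 0 allows, and their summed level was 7078 and 6554 CPM in KO and 6361 and 6121 CPM in WT.

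Entpd1, at about 1.33-fold, was the only 1 of the 7 genes with both KO libraries above both WT libraries, beside 13.5% of tested genes. With genotype as the only term, its test was not passed once all genes were considered. A fit that adds replicate number as a block, given at the end, called it on 1 residual degree of freedom. The other 6 genes differed by less than their errors. Nt5e, which makes adenosine, had nearly equal means in KO and WT, as did P2rx4 and Cd38. edgeR's quasi-likelihood test called 0 of the 7 at an adjusted p (Benjamini-Hochberg) under 0.05, and it called 0 of the 14274 tested genes (0%), Ahrr with its large difference included. DESeq2 called none of the 7 either (0.267% of all genes with an adjusted p, among them Ahrr at an adjusted p of 3.11e-18), nor did limma-voom (0%). In the authors' deposited table all 7 had an adjusted p of 0.889, a value shared by 18289 of 19191 genes there, and 0.344% of all genes were under 0.05.

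Entpd1 (chromosome 19, 40686887 to 40816092, plus strand, mm9) encodes the enzyme at the head of the cascade. It had 2611 and 4877 reads in KO and 1627 and 4602 reads in WT, or 85.1 and 92.3 CPM in KO against 60.6 and 72.3 CPM in WT. The KO and WT libraries did not overlap, and the gap between the lowest KO and the highest WT library was about as wide as that between the WT libraries themselves. The mean was 88.7 ± 5.07 CPM in KO and 66.4 ± 8.26 CPM in WT (SD, n = 2 each). The log2 fold change of KO over WT was 0.42 ± 0.12 (standard error), with 0.49 within replicate 1 and 0.35 within replicate 2. The unadjusted 95% interval was 0.11 to 0.73 and the unadjusted p was 0.0176, while the edgeR adjusted p was 1.00. A lower p was reached by 152 of the 14274 genes tested (1.06%). Of the 7524 tested genes whose average log2 CPM reached 4, 65 had a larger log2 fold change (0.864%).

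Entpd1 is also made by B cells, macrophages and endothelium, and in bulk samples fewer cells of a type and less RNA per cell cannot be told apart. The summed level of 6 B cell markers was 17.7 and 13.2 CPM in KO and 18.9 and 20.8 CPM in WT. The 9 macrophage markers summed to 112 and 47.0 CPM in KO and 154 and 69.1 CPM in WT. The 6 endothelial markers summed to 107 and 117 CPM in KO and 110 and 124 CPM in WT, nearly all of it Pecam1, and the other 5, each of them with a log2 fold change above 0, summed to 2.55 and 11.0 CPM in KO and 2.79 and 8.62 CPM in WT. None of these sums was higher in both KO libraries than in both WT libraries. The sum of the 6 cytotoxic cell markers was higher in both KO libraries, at 42.4 and 60.2 CPM against 25.4 and 37.7 in WT. Nkg7 was its largest part (31.0 and 49.7 CPM in KO, 14.4 and 25.4 CPM in WT). Of the 5 tested markers of this list, 3 were higher and 2 lower in KO. Besides Nkg7, log2 fold changes were 0.43 for Cd8a, 0.22 for Cd8b1, -0.47 for Klrb1c and -0.15 for Prf1. The Treg marker sum given above was also higher in both KO libraries. Without Ctla4 the sum overlapped between the genotypes, at 3343 and 2973 CPM in KO and 3166 and 3014 CPM in WT. Of the 7 Treg markers, 4 were higher and 3 lower in KO. Foxp3, Cd3e and Ikzf2 had log2 fold changes of -0.062, -0.12 and -0.054. Those of Ctla4, Cd4, Tnfrsf18 and Il2ra were 0.24, 0.18, 0.11 and 0.037. Ctla4, Cd4 and Tnfrsf18 were above WT in both KO libraries. The part of these marker levels in the Entpd1 difference was not tested.

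No other gene of the table overlaps Entpd1 in position. Tctn3, a cilium gene that starts 0.164 kb away on the opposite strand, had 11.5 and 12.4 CPM in KO and 10.8 and 12.2 CPM in WT, a log2 fold change of 0.05 ± 0.13. Ccnj, the nearest tested gene on the other side at 89.7 kb, had 3.68 and 6.05 CPM in KO and 2.61 and 5.01 CPM in WT. These overlapped, and the log2 fold change of Ccnj was 0.34 ± 0.40, with 0.49 within replicate 1 and 0.27 within replicate 2. The genes whose levels over the 4 libraries were nearest to Entpd1, by Euclidean distance of centred log2 CPM, were Tnfsf11 (0.0193), Hist1h2ae (0.0521) and Itgb1 (0.0573). Tnfsf11 encodes the cytokine RANKL and Itgb1 the integrin beta 1 chain. Their log2 fold changes were 0.40 for Tnfsf11, 0.39 for Hist1h2ae and 0.46 for Itgb1, each with an edgeR adjusted p of 1.00. Reads of histone copies can be shared, so the value of Hist1h2ae is uncertain. With 4 libraries many genes lie this near to each other.

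**Figure D1:**
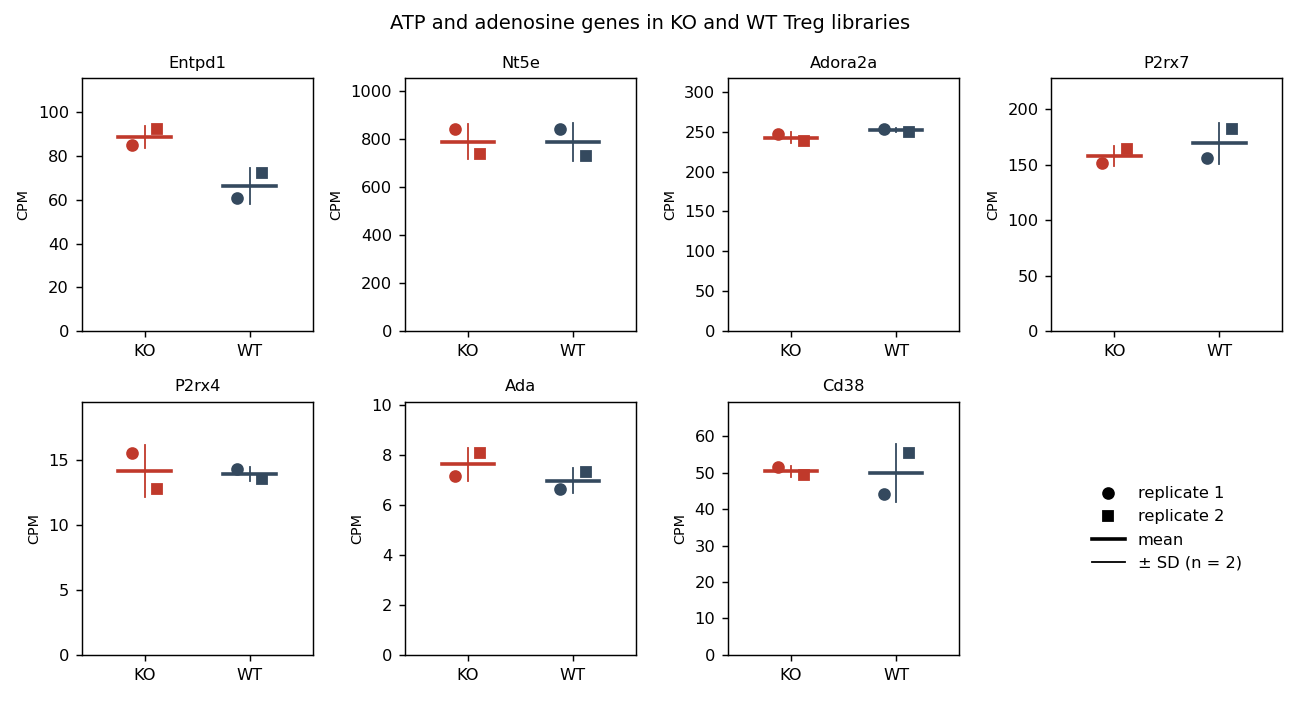
Levels in CPM (y axis, from 0) of the 7 genes in KO and WT libraries, with circles for replicate 1, squares for replicate 2, thick lines for means and thin lines for SD (n = 2). Entpd1 is at 85.1 and 92.3 CPM in KO and 60.6 and 72.3 CPM in WT, and Adora2a is slightly lower in both KO libraries, while the other 5 genes overlap.

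Nt5e (chromosome 9, 88222447 to 88266927, plus strand, mm9) encodes the enzyme that completes the path to adenosine. It had 841 and 739 CPM in KO against 842 and 732 CPM in WT, so KO and WT overlapped and each replicate number gave nearly the same level in both genotypes. The mean was 790 ± 72.2 CPM in KO and 787 ± 78.4 CPM in WT (SD, n = 2 each). The log2 fold change was 0.0050 ± 0.12, the 95% interval was 0.82 to 1.23-fold, and the edgeR adjusted p was 1.00. The spread between libraries of 1 genotype was far larger than the difference between genotypes, and it was larger than counting error, which was at most 0.665% of a count here.

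Because transcript lengths cancel when 1 pair of genes is followed across libraries, the balance of both enzymes can be compared between libraries as Entpd1 reads per 100 reads of Nt5e. This ratio was 10.1 and 12.5 in KO against 7.19 and 9.88 in WT. The means were 11.3 ± 1.68 in KO and 8.54 ± 1.90 in WT (SD, n = 2 each). The lowest KO library lay just above the highest WT library, and the difference between means was less than 2 SD of either group. The ratio was higher in replicate 2 than in replicate 1 in both genotypes, and each SD includes that shift. Within each replicate number KO was above WT. This ratio is a description of the values above and was not tested.

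**Figure D2:**
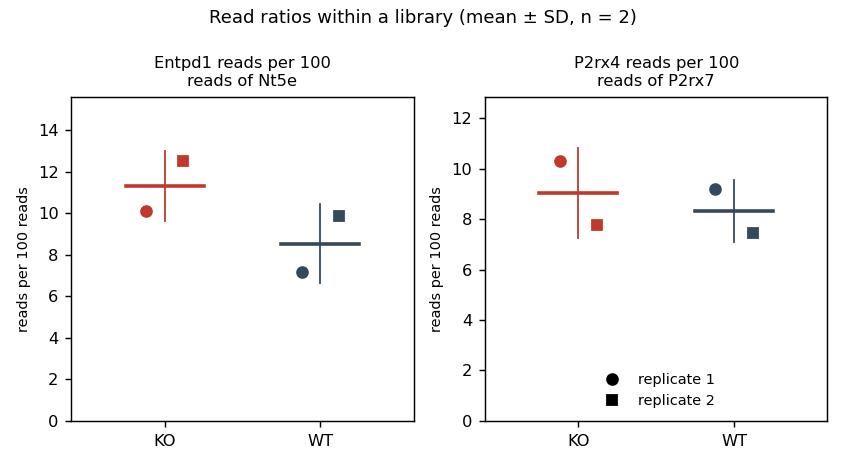
Reads of Entpd1 per 100 reads of Nt5e, and of P2rx4 per 100 reads of P2rx7 (y axes, from 0), in KO and WT libraries, with means and SD (n = 2). The Entpd1 ratio is 10.1 and 12.5 in KO and 7.19 and 9.88 in WT, and the P2rx4 ratio overlaps between genotypes.

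Adora2a (chromosome 10, 74779688 to 74797533, plus strand, mm9) encodes the receptor through which adenosine raises cAMP in T cells. It had 247 and 238 CPM in KO and 253 and 250 CPM in WT. Both KO libraries were below both WT libraries, by a small margin. The mean was 243 ± 6.87 CPM in KO and 251 ± 2.54 CPM in WT (SD, n = 2 each), a log2 fold change of -0.052 ± 0.082 with -0.034 within replicate 1 and -0.071 within replicate 2. The 95% interval was 0.84 to 1.11-fold and the edgeR adjusted p was 1.00. Counting Entpd1 and Adora2a, 2 of the 7 genes had KO and WT libraries that did not overlap, beside 27.0% of all genes tested, so this count is near that of genes at large.

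P2rx7 (chromosome 5, 123093920 to 123141441) and P2rx4 (chromosome 5, 123157593 to 123179747) encode ATP-gated channels and lie 16.2 kb apart on the plus strand (mm9). P2X7 needs high ATP and can kill T cells when held open, and P2X4 responds to lower ATP and supports T cell activation. P2rx7 had 151 and 164 CPM in KO and 156 and 182 CPM in WT. Its KO and WT libraries overlapped, and its log2 fold change was -0.10 ± 0.11, with -0.043 within replicate 1 and -0.15 within replicate 2 (edgeR adjusted p = 1.00). P2rx4 had 15.6 and 12.8 CPM in KO and 14.3 and 13.6 CPM in WT. The KO libraries of P2rx4 bracketed those of WT, and the log2 fold change was 0.020 ± 0.14, with 0.12 within replicate 1 and -0.089 within replicate 2 (edgeR adjusted p = 1.00). P2rx4 reads per 100 reads of P2rx7 were 10.3 and 7.79 in KO and 9.19 and 7.47 in WT, so the balance of both channel genes overlapped between genotypes. The 95% intervals were 0.77 to 1.13-fold for P2rx7 and 0.79 to 1.30-fold for P2rx4.

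Ada (chromosome 2, 163552320 to 163575975, minus strand, mm9) removes adenosine. It rested on the fewest reads of the 7 genes, with 220 and 428 in KO and 178 and 467 in WT. This corresponds to 7.17 and 8.10 CPM in KO and 6.63 and 7.33 CPM in WT, which overlapped. Exact Poisson 95% intervals, which cover counting error only, were 6.25 to 8.18 and 7.35 to 8.90 CPM in KO and 5.69 to 7.68 and 6.68 to 8.03 CPM in WT, and those of all 4 libraries overlapped. The log2 fold change was 0.13 ± 0.16 (95% interval 0.82 to 1.45-fold, edgeR adjusted p = 1.00). Changes of Ada within that range remain compatible with these data, and the range is not a limit of detection.

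Cd38 (chromosome 5, 44260048 to 44303614, plus strand, mm9) had 51.5 and 49.4 CPM in KO and 44.3 and 55.5 CPM in WT. Both KO libraries lay between the WT libraries. Its log2 fold change was 0.014 ± 0.14, with 0.22 within replicate 1 and -0.17 within replicate 2, and the edgeR adjusted p was 1.00. The 95% interval was 0.79 to 1.28-fold. Bst1, the related NAD-consuming enzyme gene 25.5 kb away, held 8 and 15 reads in KO and 11 and 22 in WT. Art2b, the surface ADP-ribosyltransferase that uses NAD to modify P2X7 in mice, had 16.1 and 18.7 CPM in KO and 14.7 and 21.7 CPM in WT, and its log2 fold change was -0.071 ± 0.21 (edgeR adjusted p = 1.00).

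**Figure D3:**
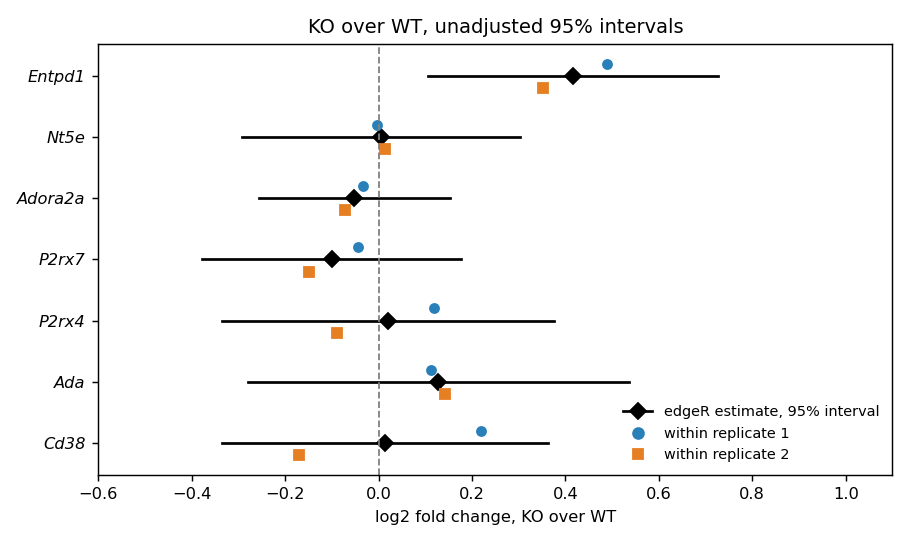
Log2 fold change of KO over WT (x axis) for the 7 genes, as edgeR estimates with unadjusted 95% intervals (diamonds and lines) and within replicate 1 (circles) and replicate 2 (squares). The Entpd1 interval, 0.11 to 0.73, lies above 0, and the other 6 intervals span 0.

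Around the 7 genes, 93 others were listed, of which 92 were in the table and 80 had enough reads to be tested. Besides nucleotide and adenosine handling, they cover cAMP signalling (26 tested genes) and the P2X7 inflammasome (8 tested genes). Of these 80 genes, 35 were higher and 45 lower in KO, with a median log2 fold change of -0.033 beside 0.0074 for all genes tested. edgeR called 0 of them, and DESeq2 called 0. At an unadjusted p under 0.05, Adora2b was higher and Acpp was lower, beside 1.64% of all genes tested that were higher and 1.21% that were lower. KO lay above WT without overlap in 11 of the 80 genes and below it in 12, beside 13.5% and 13.4% of all genes tested.

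Adora2b encodes a relative of the Adora2a receptor that needs more adenosine. It held 52 and 136 reads in KO and 23 and 50 reads in WT, or 1.69 and 2.57 CPM in KO against 0.856 and 0.785 CPM in WT. Both KO libraries were above both WT libraries, and the log2 fold change was 1.39 ± 0.38, with 0.95 within replicate 1 and 1.66 within replicate 2. Its unadjusted p was 0.0130 and its edgeR adjusted p was 1.00. The 10 epithelial markers summed to 28.3 and 40.9 CPM in KO and 27.8 and 28.4 CPM in WT. Of the 9 tested, 6 were higher and 2, Epcam and Krt18, lower in both KO libraries, beside 13.5% and 13.4% of all genes tested. Krt8 held 31 and 204 reads in KO and 0 and 8 in WT, a log2 fold change of 4.89 ± 1.09. Krt19 held 17 and 129 reads in KO and 4 and 0 in WT, a log2 fold change of 4.79 ± 1.42. The part of these markers in the Adora2b difference was not tested. The remaining adenosine receptors were sparse, with 6 and 3 reads of Adora1 in KO and 7 and 21 in WT, and with 9 and 0 reads of Adora3 in KO and 18 and 13 in WT.

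Acpp, whose membrane form also turns AMP into adenosine, had 29.4 and 22.2 CPM in KO and 33.0 and 35.2 CPM in WT. Both KO libraries were lower, and the log2 fold change was -0.41 ± 0.16, with -0.17 within replicate 1 and -0.66 within replicate 2 (unadjusted p = 0.0458, edgeR adjusted p = 1.00). Enpp1, which cleaves ATP to AMP in 1 step, had 39.2 and 38.0 CPM in KO and 35.2 and 35.2 CPM in WT, a log2 fold change of 0.13 ± 0.10 (edgeR adjusted p = 1.00). Entpd3, a relative of Entpd1, held 0 and 8 reads in KO and 7 and 27 in WT. Entpd6 had a log2 fold change of -0.17 ± 0.13. Over the 12 tested genes of ATP and nucleotide hydrolysis, Entpd1 and Nt5e included, 5 were higher and 7 lower, and the median was -0.017.

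Among the other P2X receptors, P2rx1 held 6 and 15 reads in KO and 14 and 32 in WT, P2rx3 held 39 and 30 in KO and 21 and 32 in WT, and P2rx5 held 33 and 33 in KO and 35 and 68 in WT. P2rx2 and P2rx6 had too few reads to be tested. None of the tested P2Y receptors, which couple nucleotides to G proteins, was called. P2ry10, which is known as a receptor for lysophosphatidylserine rather than for nucleotides, had 1259 and 1195 CPM in KO and 1149 and 1153 CPM in WT, a log2 fold change of 0.093 ± 0.092 (edgeR adjusted p = 1.00). The UDP-glucose receptor gene P2ry14 had 2.12 and 1.65 CPM in KO and 2.09 and 2.64 CPM in WT. The ADP receptor gene P2ry12 held 19 and 15 reads in KO and 27 and 51 in WT, and P2ry13, also for ADP, held 20 and 0 in KO and 40 and 38 in WT. P2ry1, P2ry2 and P2ry6 had at most 32 reads in any library, and P2ry4 was not tested.

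Genes that remove or take up adenosine numbered 12 tested, Ada included, with 5 higher and 7 lower and a median log2 fold change of -0.059. Slc28a2, a concentrative nucleoside transporter gene, had 155 and 166 CPM in KO and 170 and 187 CPM in WT, a log2 fold change of -0.15 ± 0.095. Adk, which phosphorylates adenosine inside the cell, had 38.0 and 42.5 CPM in KO and 32.3 and 40.1 CPM in WT, a log2 fold change of 0.15 ± 0.14. Dpp4, which anchors adenosine deaminase in humans, had -0.13 ± 0.099, and Xdh, the enzyme at the end of purine breakdown, had -0.24 ± 0.18. Each of these 4 had an edgeR adjusted p of 1.00.

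For the release of ATP, 7 genes were tested, 4 higher and 3 lower, with a median log2 fold change of 0.017. The vesicular nucleotide transporter gene Slc17a9 had 13.4 and 14.9 CPM in KO and 15.6 and 18.3 CPM in WT. Both KO libraries were lower, at a log2 fold change of -0.26 ± 0.14 (edgeR adjusted p = 1.00). The pannexin channel gene Panx1 had 99.1 and 104 CPM in KO and 90.4 and 99.5 CPM in WT, which overlapped, and the connexin gene Gja1 had -0.56 ± 0.40.

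Downstream of Adora2a, 26 genes of cAMP signalling were tested, 16 higher and 10 lower, with a median log2 fold change of 0.030. The phosphodiesterase genes Pde3b and Pde4b, whose products break down cAMP, were above WT in both KO libraries. Pde3b had 74.3 and 67.6 CPM in KO and 62.6 and 55.5 CPM in WT, a log2 fold change of 0.27 ± 0.11. Pde4b had 462 and 440 CPM in KO and 418 and 363 CPM in WT, a log2 fold change of 0.21 ± 0.10. Adcy3, an adenylyl cyclase that makes cAMP, had 32.4 and 29.2 CPM in KO and 34.8 and 36.9 CPM in WT, a log2 fold change of -0.22 ± 0.11, and Adcy5 had 0.95 ± 0.61. None of these 4 passed edgeR with genotype as the only term (adjusted p = 1.00 for each).

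Downstream of P2X7, 8 inflammasome genes were tested, 3 higher and 5 lower, with a median log2 fold change of -0.034. Gsdmd, the pore-forming gasdermin, had the lowest p of these, with 60.8 and 64.5 CPM in KO and 64.1 and 67.1 CPM in WT, a log2 fold change of -0.066 ± 0.099 (edgeR adjusted p = 1.00). Nlrp3 had 4.99 and 0.719 CPM in KO and 6.48 and 0.864 CPM in WT, and Il1b had 18.2 and 5.68 CPM in KO and 20.7 and 5.62 CPM in WT. Both were higher in replicate 1 of each genotype, as were the macrophage markers given above, and the part of those cells was not tested.

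**Figure D4:**
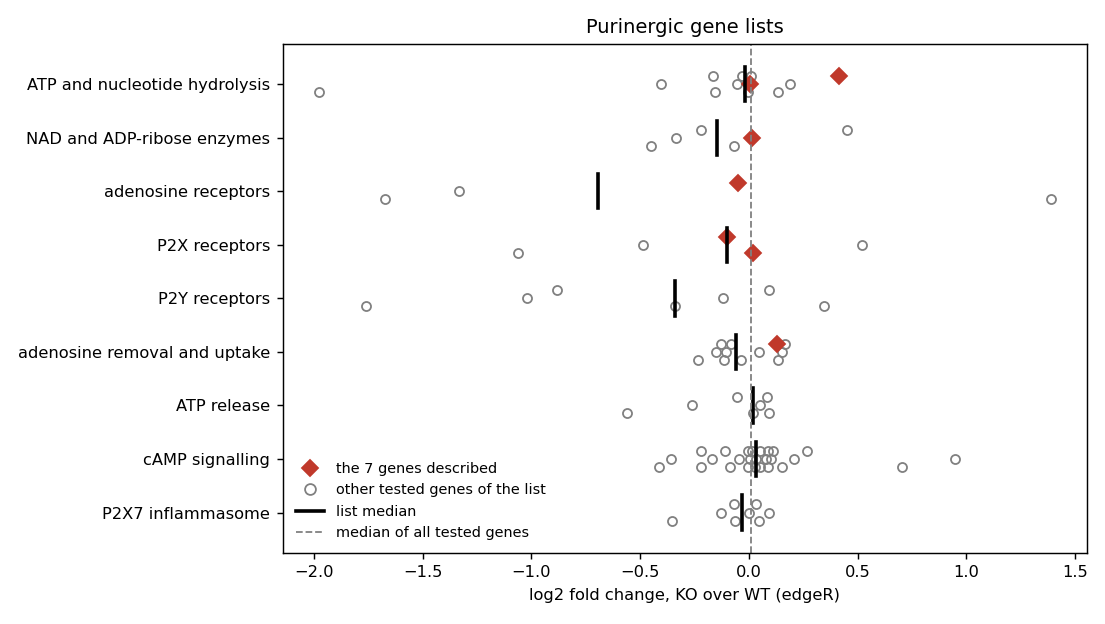
Log2 fold change of KO over WT (x axis) for every tested gene of 9 lists of purinergic genes (rows), with diamonds for the 7 genes described, open circles for the others, bars for list medians and a dashed line for the median of all genes tested (0.0074). Adora2b lies furthest to the right at 1.39, and the points far from 0 are mostly receptor genes with few reads.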

How the data were processed

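Ribosome-depleted total RNA was read as 50 bp single-end reads, per the labels' protocols. TopHat2, DESeq and build mm9 are named, without versions, per the submitters' processing notes. How reads were counted, on which annotation and with which strand setting is not given in the sources used here. The authors' deposited table holds whole-number counts per gene, without normalization, and an adjusted p-value per gene, read here as that of KO against WT. Data of the 4 ATAC-seq samples were not used here.

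The whole table was fitted with edgeR 4.0.16 in R 4.3.3 (quasi-likelihood F-test, older method, genotype as the only term, filterByExpr, TMM scaling), which left 14274 genes tested. Benjamini-Hochberg adjustment covered all of them, at a threshold of 0.05. The fit has 2 residual degrees of freedom, and even the large difference of Ahrr missed its threshold. CPM of tested genes use TMM-scaled totals, while floors (3 counts) and marker sums use plain totals. Ratios within a replicate number use log2 CPM (prior count 2). DESeq2 1.42.0 and limma 3.58.1 (voom) were alternatives, as were 2 other scalings, 2 other filters, robust and newer variance estimates, the replicate number as a block and leaving out each library. The fits of edgeR, with and without the block, of DESeq2 and of limma-voom were tested on simulated counts with known fold changes. The other steps were not. The simulated counts had the same variability for all genes and no replicate effect, and only median fold changes were required to match. They therefore do not check the calls of the block fit. Levels were not compared between genes, since transcript lengths were not used here.

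The members, lists and tests were chosen with earlier results of these data known. Named were the 7 genes, Ahr, Ahrr, P2 and adenosine receptors, up to 4 genes of lowest p per list, neighbours, and the 3 tested genes (average log2 CPM 4 or more) nearest in pattern to each of the 7. Not every gene so taken is reported. Art2b, Nlrp3 and Il1b were named for their roles and were taken after their values were seen.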

Additional observations from a re-analysis of the deposited data

How the results depend on the processing

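Over 13 alternatives, 82 of the 91 values of the 7 genes kept their direction and stayed uncalled. Entpd1 was higher in each, at 0.29 to 0.55 on the log2 scale without a library, and Adora2a was lower and Ada higher in each. Entpd1 had an adjusted p of 0.652 to 1.00 in all of these but the block fit described next. Near-zero differences changed sign. Nt5e had -0.00045 without a filter and -0.10 to 0.11 without a library. Without a library P2rx7 ran from -0.21 to 0.015, P2rx4 from -0.14 to 0.16 and Cd38 from -0.14 to 0.19. The cause was not tested.

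The count of called genes was 0, but 52 without a filter, 48 with DESeq2 and 0 to 2 without a library. Unadjusted, edgeR had 234 higher and 173 lower genes at p under 0.05. None of the 52, the 48 or the 2 was a purinergic gene of the lists. A fit that adds replicate number as a block called 458 genes (3.21%), among them 4 of the purinergic lists. These were Entpd1 (0.42, adjusted p = 2.24e-04), Adora2b (1.41, 0.0134) and Pde3b (0.27, 0.0357), which were higher, and Acpp (-0.43, 0.00746), which was lower. That fit has 1 residual degree of freedom. The labels do not say what a replicate number shares, and the deviations of same-numbered libraries correlated at 0.64 across genes. The number of calls rose under the block, and it called no other of the 7 genes.

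Repeats for 29 other named genes, added after seeing the data, reversed only Art2b (-0.32 to 0.24 without a library) and Tctn3 (-0.033 to 0.14). In 21 of the 29, leaving out a library moved the value by over 1.5 times, for example Adcy5 (0.14 to 1.42), Gja1 (-1.06 to -0.12), Xdh (-0.43 to -0.020), Adk (0.0031 to 0.32) and Acpp (-0.63 to -0.22). Where a library is left out, the genotype has 1 library, which is assumed to vary like the rest. Depth limits Ada and the sparse receptors most.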
